A study of Rattus norvegicus with 6 samples.

Results

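Interleukins and interleukin receptors were examined in the dorsal root ganglia (DRG) of rats with a chronic constriction injury (CCI) of the sciatic nerve. The members are the gene symbols that begin with Il and a digit in the deposited expression table, without Il6, Il6r, Il6st and Il34, with 1 row kept per symbol and a count sum of at least 30 over the 6 libraries. Of 75 such symbols among the 27943 distinct symbols of the table, 55 met the count floor and 20 fell under it. The 55 members comprise 35 receptor chains, 16 ligands, 3 antagonists and the enzyme Il4i1. RNA of the ipsilateral lumbar 4 to 6 DRG was sequenced from 3 CCI and 3 sham male Sprague-Dawley rats on day 11 after surgery. In the CCI group the sciatic nerve was tied loosely with ligatures. In the sham group, for which the labels give no treatment, the nerve was exposed without ligation according to the study's methods. Those methods describe 1 rat per sample, whereas the library protocol in the labels speaks of a pooled sample, so if the libraries hold pooled RNA the p-values measure the spread between pools.

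Interleukins are secreted signalling proteins by which immune cells, glia and neurons address each other. Most bind receptors built of several chains that signal through JAK kinases and STAT factors, whereas the receptors of the IL-1 family share an intracellular domain with the Toll-like receptors and signal through MyD88 and IRAK kinases. In sensory ganglia, interleukins are known as signals between macrophages, satellite glia and neurons after nerve injury, and several of their receptors are found on sensory neurons themselves.

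Total counts lay between 75423546 and 87615743 per library, and the detection limit of 3 reads was 0.0341 to 0.0394 CPM (reads scaled by library total and TMM factor). Log2 CPM correlated across genes with Pearson's r of 0.946 to 0.953 within groups and 0.944 to 0.949 between groups. All 4 genes of a nerve injury list (Atf3, Gal, Npy and Sprr1a) were higher in CCI, with a summed level of 129 to 279 CPM against 9.04 to 10.8 CPM in sham. The summed level of 5 sensory neuron markers was 4064 to 4149 CPM in CCI and 3591 to 4306 CPM in sham. The summed level of 4 markers of large neurons was 3382 to 3750 CPM in CCI and 4414 to 4873 CPM in sham, without overlap. Of these 4 genes only Pvalb was called lower (log2 fold change -0.69, edgeR adjusted p = 0.158). Most of the sum was Nefh, with 2165 to 2581 CPM in CCI and 3261 to 3664 CPM in sham. Its log2 fold change of -0.54 (edgeR adjusted p = 0.117) lay under the limit of size. Ntrk3 had -0.24 and Spp1 went the other way with 0.26. The part of this list in the results on interleukin genes was not tested. Sham 1 stood apart by its skeletal muscle markers, whose sum was 199.8 CPM there against 8.03 to 32.7 CPM in the other libraries, and without this library the same number of 8 members was called higher. In whole ganglia, fewer cells of a type and less RNA per cell cannot be told apart.

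At day 11 the members called were all higher in CCI and were mostly receptor chains, which also make up 35 of the 55 members. Receptor chains and ligands were not tested against each other. A gene was called when its unadjusted p was under 0.05 and its log2 fold change was 0.58 or more in either direction, the limits of the study's methods. By this rule 8 of 55 members (14.5%) were called higher, whereas 2.81% of the 30764 rows tested, and 2.92% of the protein-coding rows among them, were called higher. The count of members called lower was 0, against 1.37% of all rows and 1.04% of the protein-coding rows. The called members were the receptor chains Il1r1, Il1rl1, Il18r1, Il18rap, Il2rb, Il4r and Il13ra1 and the ligand Il24, that is, 7 of 35 receptor chains and 1 of 16 ligands. The median log2 fold change was 0.23 over the 55 members and 0.01 over all rows tested. In edgeR's quasi-likelihood test, after Benjamini-Hochberg adjustment over all rows, 0 members lay at an adjusted p under 0.05, where 0.0553% of all rows were higher and 0.0228% lower, and 9 members had an unadjusted p under 0.05. With the DESeq2 Wald test on the same rows, 7 members were higher at an adjusted p under 0.05, namely the called members except Il18r1, against 1.49% of all rows, and 10 members had an unadjusted p under 0.05. In 12 members (21.8%) all 3 CCI libraries lay above all 3 sham libraries, a pattern held by 8.55% of all rows. In 2 members (3.64%) they lay below, as in 8.15% of all rows. CCI 1 was the highest CCI library in 6 of the 8 called members, CCI 2 in 2 and CCI 3 in 0. Over all 55 members these numbers were 28, 11 and 16.

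**Figure D1:**
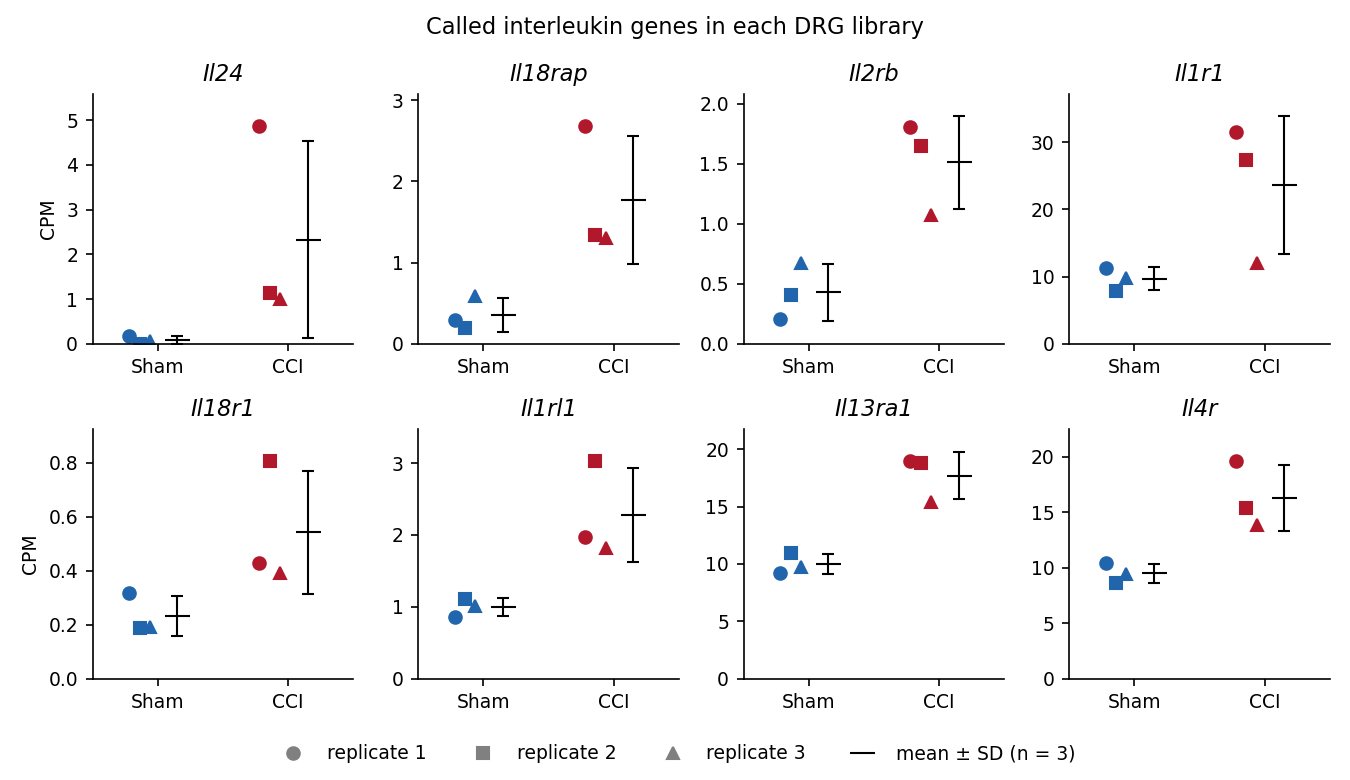
CPM of the 8 members called higher in CCI, with 1 point per library (circle, square and triangle for replicates 1, 2 and 3) and the mean ± SD of 3 libraries beside them, on linear axes from 0. The CCI points lie above all sham points in every panel, and in Il24 the CCI 1 library, at 4.87 CPM, lies far above the other CCI libraries.

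**Figure D2:**
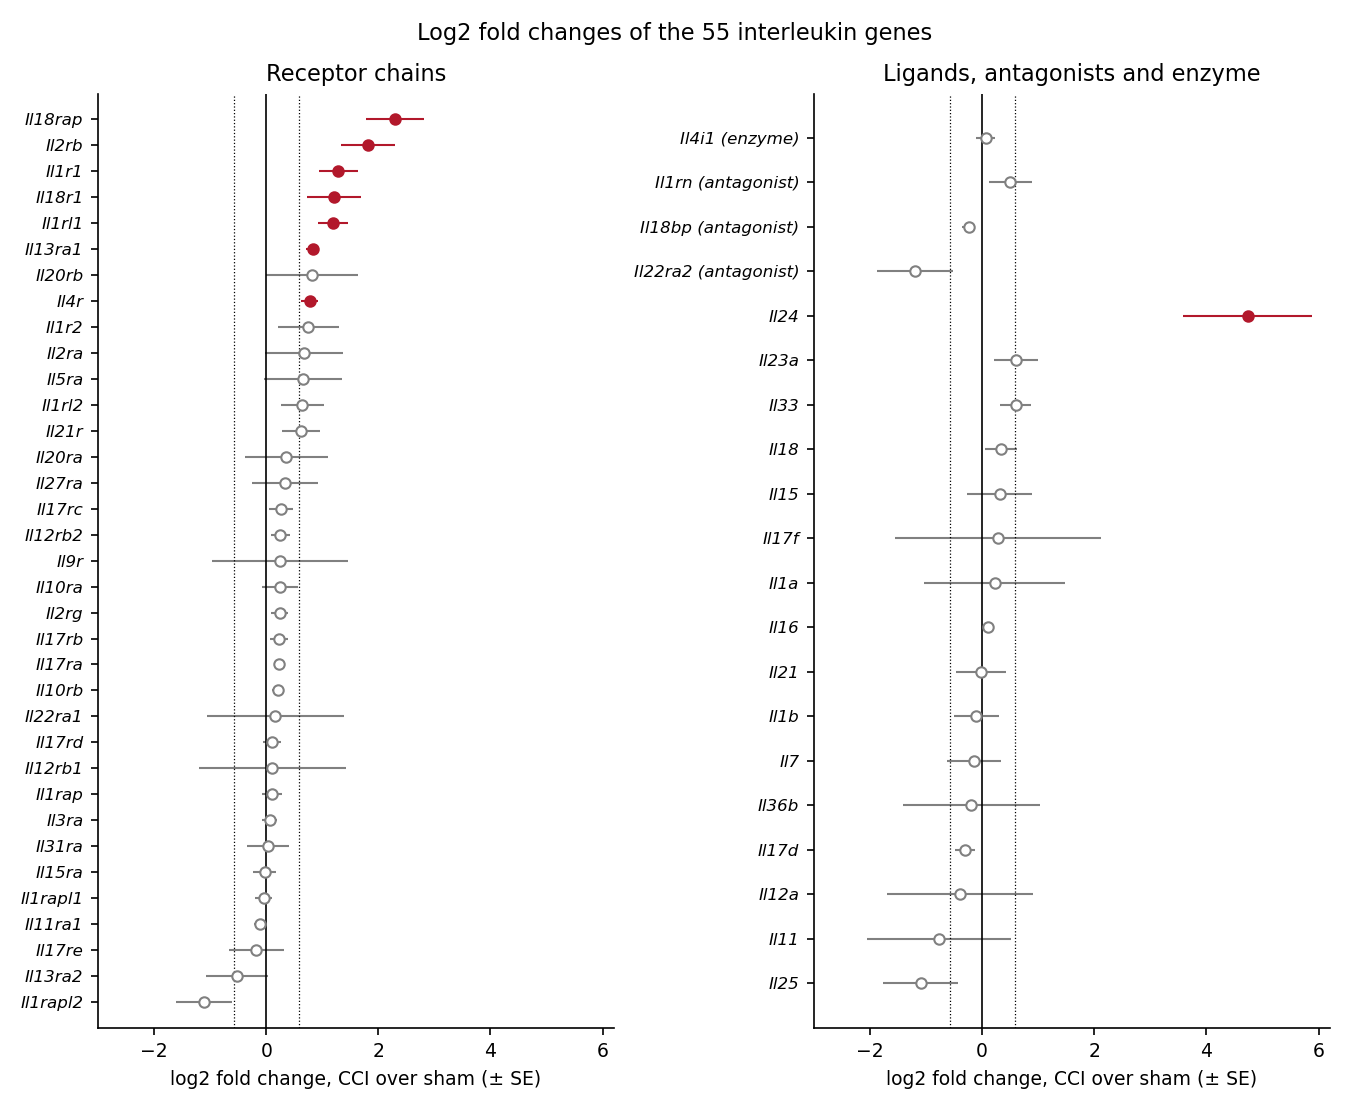
Log2 fold change of CCI over sham, with its standard error, for the 35 receptor chains (left) and for the 16 ligands, 3 antagonists and 1 enzyme (right). Filled red points are the 8 called members and dotted lines mark a log2 fold change of 0.58 in either direction. The largest value is that of Il24 at 4.74 and the lowest is that of Il22ra2 at -1.20.

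Among the 16 members of the IL-1 family, 4 were called higher, where 2.81% of all rows were called higher and 1.37% lower. All 4 were receptor chains encoded near each other on chromosome 9. Il1r1, the signalling receptor of IL-1α and IL-1β, had 31.5, 27.3 and 12.01 CPM in the CCI libraries and 11.3, 7.89 and 9.78 CPM in the sham libraries. All CCI values exceeded the sham values, but CCI 3 lay only just above Sham 1. The log2 fold change was 1.29 ± 0.35 (SE), with an edgeR adjusted p = 0.299 (quasi-likelihood test, Benjamini-Hochberg adjustment over all rows). Il1rl1, the receptor of IL-33, had 1.98, 3.02 and 1.82 CPM in CCI and 0.863, 1.11 and 1.01 CPM in sham. The groups were separate, and the mean rose from 0.996 ± 0.125 to 2.28 ± 0.653 CPM (SD, n = 3). Its log2 fold change was 1.19 ± 0.26 (SE, edgeR adjusted p = 0.218).

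The receptor of IL-18 was called in both of its chains, each at a low level. Il18r1, which binds IL-18, had 0.430, 0.806 and 0.394 CPM in CCI and 0.318, 0.189 and 0.193 CPM in sham. These values correspond to 30 to 65 reads in CCI and 15 to 28 in sham, with CCI 2 the highest and no overlap. It had a log2 fold change of 1.21 ± 0.48 (SE, edgeR adjusted p = 0.467), and the call was lost when CCI 1, CCI 2, Sham 2 or Sham 3 was left out. Il18rap, the accessory chain needed for IL-18 signalling, had 2.68, 1.34 and 1.299 CPM in CCI and 0.295, 0.189 and 0.592 CPM in sham. The lowest CCI library thus held over 2 times the level of the highest sham library. Its log2 fold change was 2.30 ± 0.52 (SE, edgeR adjusted p = 0.227), the largest among the receptor chains.

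The called chains of the IL-1 family lie in a cluster of 6 receptor genes, all on the plus strand of chromosome 9 from 46840992 to 47258503 in the rat genome that the authors call V101, a span of 417512 bp. The order along the chromosome was Il1r2, Il1r1, Il1rl2, Il1rl1, Il18r1 and Il18rap. Il1r2, a decoy receptor that binds IL-1 without signalling and is shown, after its values were seen, as the first gene of the cluster, had 0.442, 0.372 and 0.302 CPM in CCI and 0.329, 0.101 and 0.229 CPM in sham. Its groups overlapped, and the log2 fold change of 0.75 ± 0.55 (SE) was not called (edgeR adjusted p = 0.733). Il1rl2, the receptor of the IL-36 ligands, had 3.16, 1.92 and 1.76 CPM in CCI and 1.52, 2.02 and 0.833 CPM in sham. Sham 2 exceeded CCI 2 and CCI 3, and the log2 fold change was 0.64 ± 0.39 (SE, edgeR adjusted p = 0.669). Of 8 further rows tested within 300000 bp on either side or inside the cluster, 0 were called. They include several rows of Map4k4 and a further row of Il1r1, so they stand for fewer genes. Over all rows, 2.81% were called higher and 1.37% lower, so 0 of 8 does not set these rows apart. The log2 fold changes were 0.10 for the main row of Map4k4, 0.07 for Mfsd9, 0.34 for Slc9a2 and -2.38 for Tmem182. The last of these rests on 11, 13 and 0 reads in CCI and 73, 6 and 55 in sham.

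**Figure D3:**
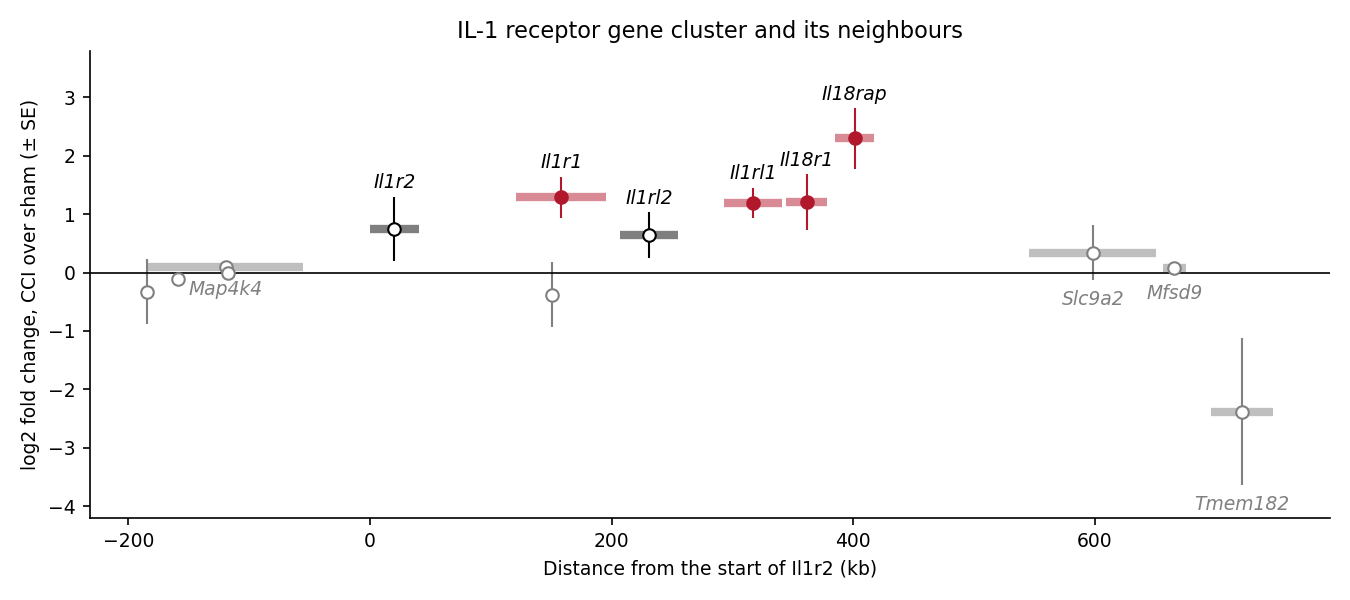
Log2 fold change of CCI over sham (± SE) against the distance from the start of Il1r2 in kb for the 6 receptor genes of the cluster and the tested rows around it. Horizontal bars span each gene, filled red points are called members, open black points are members not called, and grey points are other rows, unlabelled where they lack a symbol or are further rows of Map4k4 and Il1r1. The 6 receptor genes all lie above 0, from 0.64 to 2.30.

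Because these genes stand together and 4 of them were called, the start regions of the called genes that the RefSeq promoter table for the GRCr8 assembly lists are shown, each running from 250 bases before to 50 bases after the annotated start in the direction of transcription. The GRCr8 positions belong to another assembly than the positions above. Capitals mark matches on either strand. The STAT motif searched was TTCNNNGAA, the motif of the GC box, which binds factors of the SP1 family, was GGGCGG, and that of the TATA box was TATAAA. Il18rap is named only.
Il1r1 promoter, chr9:50034133-50034432, plus strand: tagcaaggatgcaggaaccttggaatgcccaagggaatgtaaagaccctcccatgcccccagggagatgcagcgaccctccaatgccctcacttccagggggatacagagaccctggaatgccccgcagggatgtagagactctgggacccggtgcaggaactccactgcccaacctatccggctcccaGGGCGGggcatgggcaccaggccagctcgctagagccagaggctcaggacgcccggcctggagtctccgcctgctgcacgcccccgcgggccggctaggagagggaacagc
Il1rl1 promoter, chr9:50203388-50203687, plus strand: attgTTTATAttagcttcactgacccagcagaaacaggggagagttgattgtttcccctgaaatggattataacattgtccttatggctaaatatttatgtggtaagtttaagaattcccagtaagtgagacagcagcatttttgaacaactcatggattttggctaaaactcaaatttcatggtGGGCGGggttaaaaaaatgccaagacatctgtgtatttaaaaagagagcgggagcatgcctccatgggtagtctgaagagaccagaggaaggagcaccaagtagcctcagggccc
Il18r1 promoter, chr9:50223241-50223540, plus strand: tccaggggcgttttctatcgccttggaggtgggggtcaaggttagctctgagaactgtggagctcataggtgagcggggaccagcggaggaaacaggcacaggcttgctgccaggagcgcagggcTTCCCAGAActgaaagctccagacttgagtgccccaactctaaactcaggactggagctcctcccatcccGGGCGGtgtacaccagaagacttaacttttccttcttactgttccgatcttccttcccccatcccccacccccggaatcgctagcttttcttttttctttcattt
Each of these 3 windows held 1 GC box match, 55 to 65 bases before the start, and 33.1% of the 33469 promoters in the table hold such a match in a window of this length. Il18r1 also held a STAT match 125 bases before the start (8.87% of promoters), and Il1rl1 a TATA match on the reverse strand 246 bases before it (14.2% of promoters). A match describes letters and shows no binding.

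The other parts of the IL-1 system did not pass the test. Il1b, the ligand IL-1β, had 0.639, 1.153 and 0.486 CPM in CCI and 0.636, 0.846 and 0.966 CPM in sham. CCI held both the highest and the lowest library, and the log2 fold change was -0.10 ± 0.40 (SE, edgeR adjusted p = 0.963). Il1a, the other ligand, rested on 32 reads in all and stood just inside the count floor with Il17f at 33 and Il11 at 47 reads, whereas Il23r with 29 and Il27 with 21 reads stood just outside. Il1rap, the accessory chain that Il1r1 and Il1rl1 both need, had 14.4, 12.2 and 10.5 CPM in CCI and 14.0, 11.2 and 9.33 CPM in sham, and the overlap was nearly complete (log2 fold change 0.10 ± 0.18, SE, edgeR adjusted p = 0.913). Il1rn, the IL-1 receptor antagonist, had 0.959, 1.09 and 0.538 CPM in CCI and 0.4998, 0.808 and 0.519 CPM in sham. CCI 3 lay within the sham range, and the log2 fold change was 0.50 ± 0.38 (SE, edgeR adjusted p = 0.745).

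IL-33, an alarmin of the IL-1 family that is kept in the nucleus and released by damaged cells, was the member with the highest level per transcript length, at a mean of 13.6 FPKM (reads scaled by library total and transcript length). Il33 had 69.1, 62.3 and 66.6 CPM in CCI and 53.3, 24.6 and 53.0 CPM in sham. All CCI libraries were higher, and Sham 2 was about 2 times lower than the other sham libraries. Its log2 fold change of 0.60 ± 0.28 (SE) was not called (edgeR adjusted p = 0.555), while the DESeq2 Wald test called it at 0.59 (DESeq2 adjusted p = 0.272). With 1 library left out the log2 fold change of Il33 ranged from 0.31 to 0.77 and was not called. Its receptor Il1rl1 was much scarcer, with a mean of 0.584 ± 0.169 FPKM in CCI and 0.252 ± 0.0292 FPKM in sham (SD, n = 3).

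For IL-18 the ligand and its soluble inhibitor stood above the receptor chains in FPKM. Il18 had 0.946, 0.781 and 0.683 CPM in CCI and 0.738, 0.505 and 0.664 CPM in sham, an overlap with a log2 fold change of 0.34 ± 0.29 (SE, edgeR adjusted p = 0.787). Il18bp, which encodes the IL-18 binding protein on a row that the table joins with Rnf121, had 13.0, 13.9 and 13.1 CPM in CCI and 13.6, 16.5 and 17.2 CPM in sham. Only Sham 1 lay within the CCI range, and the log2 fold change was -0.24 ± 0.11 (SE, edgeR adjusted p = 0.531). Mean FPKM values in CCI were 2.41 for Il18bp, 0.726 for Il18, 0.306 for Il18rap and 0.124 for Il18r1, against 2.83, 0.568, 0.0601 and 0.0527 in sham. The Il18bp level cannot be taken as that gene's alone, since its row holds another gene.

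Il1rapl1 and Il1rapl2 are IL-1 receptor-like proteins of neurons, known for a role at synapses. Il1rapl1 had 5.89, 4.93 and 4.32 CPM in CCI and 5.41, 4.87 and 5.37 CPM in sham, with the sham values inside the CCI range (log2 fold change -0.05 ± 0.16, SE, edgeR adjusted p = 0.958). Il1rapl2 had 0.295, 0.149 and 0.276 CPM in CCI and 0.363, 0.782 and 0.411 CPM in sham. It was one of the members whose CCI libraries all lay below the sham libraries, with a log2 fold change of -1.11 ± 0.50 (SE) that was not called (edgeR adjusted p = 0.535). A prior without trend gave -1.11 as well and called it.

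Both chains of the receptor that IL-4 and IL-13 share rose. Il13ra1, the chain that binds IL-13, had 18.9, 18.8 and 15.4 CPM in CCI and 9.22, 10.9 and 9.76 CPM in sham, at chromosome X from 122724129 to 122781479 in the V101 genome. The lowest CCI library lay well above the highest sham library. The fitted log2 fold change was 0.83 ± 0.12 (SE), with the smallest edgeR adjusted p of the members (adjusted p = 0.112). Il4r, the chain that binds IL-4, had 19.6, 15.4 and 13.9 CPM in CCI and 10.4, 8.67 and 9.47 CPM in sham, at chromosome 1 from 196942364 to 196967220. Its groups were separate too, and the log2 fold change was 0.78 ± 0.15 (SE, edgeR adjusted p = 0.174). In FPKM, Il13ra1 rose from 7.05 ± 0.581 to 12.7 ± 1.41 and Il4r from 2.41 ± 0.239 to 4.17 ± 0.743 (SD, n = 3). The ligands were at or near 0, with 2 reads of Il4 in all libraries together and 0 reads of Il13, so that changes of these ligands were not detectable at this depth.

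The start regions of both genes are printed since their products pair in 1 receptor and both rose.
Il13ra1 promoter, chrX:120214355-120214654, plus strand: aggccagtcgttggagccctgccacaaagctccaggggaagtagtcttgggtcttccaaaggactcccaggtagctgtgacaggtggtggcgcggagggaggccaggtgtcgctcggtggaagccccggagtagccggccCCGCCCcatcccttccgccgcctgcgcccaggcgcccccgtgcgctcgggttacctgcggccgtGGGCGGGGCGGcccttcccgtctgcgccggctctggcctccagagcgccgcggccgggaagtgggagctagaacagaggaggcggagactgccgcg
Il4r promoter, chr1:189545525-189545824, plus strand: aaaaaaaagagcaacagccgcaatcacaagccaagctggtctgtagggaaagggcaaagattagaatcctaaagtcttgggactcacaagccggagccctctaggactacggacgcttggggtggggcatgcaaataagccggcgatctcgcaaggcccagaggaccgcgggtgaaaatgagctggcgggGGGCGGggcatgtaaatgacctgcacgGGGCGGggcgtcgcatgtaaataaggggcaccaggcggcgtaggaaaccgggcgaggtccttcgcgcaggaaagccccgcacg
Il13ra1 held 3 GC box matches, 110, 46 and 41 bases before the start, of which the last pair overlaps by 1 base, and Il4r held 2, at 60 and 33 bases before it. Over all members with a window, 22 of 44 held a GC box match, 6 a STAT match, 9 a TATA match, 6 an AP-1 match (TGANTCA, 7.33% of all promoters) and 1 a CRE match (TGACGTCA, 1.83%).

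Il2rg, the common γ chain that joins Il4r and the receptors of IL-2, IL-7, IL-9, IL-15 and IL-21, had 3.72, 3.27 and 3.28 CPM in CCI and 2.99, 3.08 and 2.63 CPM in sham. The groups were separate, but the difference was small, with a log2 fold change of 0.24 ± 0.15 (SE, edgeR adjusted p = 0.687). Il13ra2, the decoy receptor of IL-13, had 0.270, 1.09 and 1.34 CPM in CCI and 1.43, 1.03 and 1.42 CPM in sham. CCI 1 was about 4 times lower than the other CCI libraries, which lay within the sham range (log2 fold change -0.53 ± 0.55, SE, edgeR adjusted p = 0.829).

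Il2rb, the signalling chain shared by the receptors of IL-2 and IL-15 and a marker of NK and T cells, was called as well. It had 1.81, 1.65 and 1.08 CPM in CCI and 0.204, 0.404 and 0.676 CPM in sham, at chromosome 7 from 119701251 to 119716238. CCI 3 was the lowest CCI library and Sham 3 the highest sham library, and the groups did not overlap. The log2 fold change was 1.82 ± 0.47 (SE, edgeR adjusted p = 0.280). Il15, its ligand, had 0.553, 1.05 and 0.893 CPM in CCI and 0.977, 0.215 and 0.821 CPM in sham, an overlapping pattern with a log2 fold change of 0.31 ± 0.57 (SE, edgeR adjusted p = 0.916). Il15ra, the chain that presents IL-15, had 1.52, 1.21 and 1.52 CPM in CCI and 1.54, 1.31 and 1.47 CPM in sham, with a log2 fold change of -0.02 ± 0.20 (SE, edgeR adjusted p = 0.984). Of Il2 itself 8 reads were counted, 4 in CCI 1 and 4 in Sham 2. Il2ra, the high-affinity chain of the IL-2 receptor, rested on 140 reads in all and spread widely (log2 fold change 0.68 ± 0.70, SE).

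Other members of the common γ chain family did not pass the test. Il21r, the IL-21 receptor, lies next to Il4r on chromosome 1 from 196996581 to 197024166 and had 2.09, 1.43 and 0.984 CPM in CCI and 0.738, 1.09 and 1.11 CPM in sham. CCI 3 fell within the sham range, and the log2 fold change was 0.62 ± 0.34 (SE, edgeR adjusted p = 0.631). Without CCI 3 it was 0.85 and was called. Il7, a growth factor of lymphocytes, had 0.504, 1.83 and 1.88 CPM in CCI and 1.39, 1.44 and 1.84 CPM in sham. CCI 1 was the only library under 1 CPM, and the log2 fold change was -0.14 ± 0.49 (SE, edgeR adjusted p = 0.960). Il21 and Il9r had log2 fold changes of -0.02 and 0.25, with standard errors of 0.45 and 1.21.

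**Figure D4:**
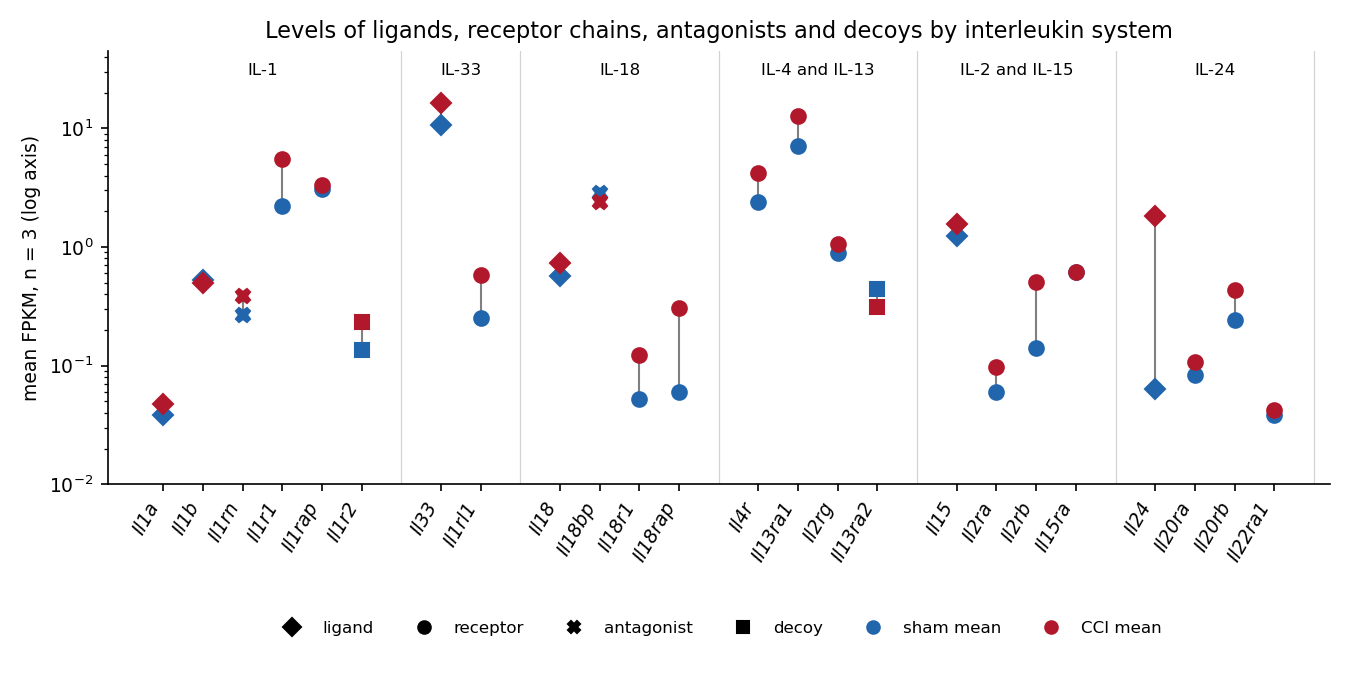
Mean FPKM (log axis, n = 3) of ligands (diamonds), receptor chains (circles), antagonists (crosses) and decoy receptors (squares) of 6 interleukin systems in sham (blue) and CCI (red). The widest gap between the groups is that of Il24, from 0.0630 to 1.84 FPKM, and the highest levels are those of Il33, whereas the ligands of the IL-4 and IL-13 system, at 2 reads or fewer, are not drawn.

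Il24, a cytokine of the IL-10 family, was the only ligand called and had the largest change of the members. It had 4.87, 1.13 and 0.998 CPM in CCI and 0.182, 0 and 0.0724 CPM in sham, at chromosome 13 from 47618452 to 47623849 on the minus strand of the V101 genome. The reads were 396, 91 and 76 in CCI and 16, 0 and 6 in sham, so that CCI 1 held over 4 times the reads of each other CCI library, and all CCI libraries lay above sham. It had a log2 fold change of 4.74 ± 1.14 (SE, edgeR adjusted p = 0.249). Without CCI 1 it was 3.61 and without Sham 1 it was 5.93, both still called, so the size of the rise depends on single libraries. Its neighbours on chromosome 13, Il20 and Il19, cytokines that share its receptors, were under the count floor with 15 and 0 reads in all. The start region of Il24 is shown as that of the called ligand, with its STAT match in capitals.
Il24 promoter, chr13:44910711-44911010, minus strand: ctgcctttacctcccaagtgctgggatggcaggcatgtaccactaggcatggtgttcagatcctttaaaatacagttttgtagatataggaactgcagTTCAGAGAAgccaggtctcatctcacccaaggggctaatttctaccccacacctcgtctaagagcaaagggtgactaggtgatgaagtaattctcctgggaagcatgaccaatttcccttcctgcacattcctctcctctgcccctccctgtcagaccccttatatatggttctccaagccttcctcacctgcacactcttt
The match began 152 bases before the start, and none of the other motifs searched was in this window.

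IL-24 is known to act through Il20rb paired with Il20ra or Il22ra1. Il20rb rested on 202 reads and had a mean of 0.432 ± 0.112 FPKM in CCI and 0.241 ± 0.208 FPKM in sham (SD, n = 3), with a log2 fold change of 0.82 ± 0.82 (SE, edgeR adjusted p = 0.821). Il20ra and Il22ra1 were lower still, at 0.108 and 0.0421 FPKM in CCI and 0.0836 and 0.0380 FPKM in sham. With 108 and 128 reads in all, their log2 fold changes of 0.36 ± 0.75 and 0.16 ± 1.22 (SE) leave room for sizeable differences in both directions. Il22ra2, a soluble antagonist of IL-22 named here after its values were seen, had 0.664, 0.211 and 0.118 CPM in CCI and 0.522, 1.09 and 0.688 CPM in sham. CCI 1 lay within the sham range and the other CCI libraries below it. Over all libraries the log2 fold change was -1.20 ± 0.68 (SE, edgeR adjusted p = 0.639), and without CCI 1 it was -2.21 and was called (edgeR adjusted p = 0.394).

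The receptor chains of IL-10 were expressed without a called difference. Il10rb, shared by the receptors of IL-10 and IL-22, had 15.8, 14.3 and 15.8 CPM in CCI and 14.5, 13.3 and 11.7 CPM in sham. CCI 2 fell just below Sham 1, and the log2 fold change was 0.22 ± 0.11 (SE, edgeR adjusted p = 0.572). Il10ra, the chain specific to IL-10, had 4.26, 2.98 and 1.80 CPM in CCI and 2.84, 2.41 and 2.38 CPM in sham, where CCI held the highest and the lowest library (log2 fold change 0.24 ± 0.32, SE, edgeR adjusted p = 0.873). Il10 itself had 2 reads, both in CCI 1.

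Among the 8 members of the IL-17 family 0 were called, where 2.81% of all rows were called higher and 1.37% lower. Il17ra, the chain common to the receptors of this family and named after its values were seen, had 28.9, 24.96 and 25.2 CPM in CCI and 23.5, 21.8 and 22.3 CPM in sham. The groups were separate and the unadjusted p of 0.0338 passed, but the log2 fold change of 0.23 ± 0.08 (SE) lay under the limit of size (edgeR adjusted p = 0.441). The other chains, Il17rb, Il17rc, Il17rd and Il17re, had log2 fold changes from -0.17 to 0.26. Il25, a ligand of Il17rb, had 0.0492, 0.161 and 0.210 CPM in CCI and 0.409, 0.278 and 0.217 CPM in sham. Its CCI libraries all lay below sham, though CCI 3 with 16 and Sham 3 with 18 reads were nearly level, and the log2 fold change of -1.10 ± 0.67 (SE) was not called (edgeR adjusted p = 0.672). Il17d, the most abundant ligand of the family at 4.49 FPKM, had a log2 fold change of -0.31 ± 0.17 (SE), and Il17f, with 33 reads, one of 0.28 ± 1.84 (SE).

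The group of IL-11, IL-12, IL-27 and IL-31, which includes the cytokines related to IL-6 and their receptors, also had 0 called members of 8. For comparison, 2.81% of all rows were called higher and 1.37% lower. Il31ra, which forms the IL-31 receptor and is known in itch-sensing neurons, was the most abundant receptor chain at a mean of 11.4 FPKM. It had 135, 70.8 and 133 CPM in CCI and 61.1, 124 and 146 CPM in sham, so that 1 library of each group lay at roughly the same low level and the others high. The fitted log2 fold change was 0.03 ± 0.37 (SE, edgeR adjusted p = 0.989). Il23a, the p19 chain of IL-23, had 0.369, 0.521 and 0.564 CPM in CCI and 0.239, 0.366 and 0.350 CPM in sham. CCI 1 lay only just above Sham 2, and the log2 fold change of 0.60 ± 0.39 (SE) was not called (edgeR adjusted p = 0.695). Il27ra, named after its values were seen, had 4.52, 6.89 and 11.7 CPM in CCI and 3.33, 11.6 and 3.33 CPM in sham. Sham 2 stood above the other sham libraries, and the log2 fold change of 0.34 ± 0.59 (SE) became 1.21 without it and was then called. Il11ra1, Il12rb1 and Il12rb2 had log2 fold changes of -0.11, 0.10 and 0.25, while the ligands Il11 and Il12a rested on 47 and 83 reads. When the rows of a symbol were summed, Il12rb2 had a log2 fold change of 1.74 and was called, because a second row of that symbol was high in CCI 1 and CCI 2.

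Of the remaining members, Il16, whose product attracts cells bearing CD4, had 50.9, 49.6 and 46.7 CPM in CCI and 51.8, 44.4 and 40.4 CPM in sham. The ranges overlapped, and the log2 fold change was 0.11 ± 0.10 (SE, edgeR adjusted p = 0.804). Il4i1, a secreted amino acid oxidase named for its induction by IL-4, had 5.13, 4.25 and 5.72 CPM in CCI and 5.10, 4.30 and 5.08 CPM in sham (log2 fold change 0.06 ± 0.16, SE, edgeR adjusted p = 0.948). Il3ra and Il5ra, the receptor chains specific to IL-3 and IL-5, had log2 fold changes of 0.07 ± 0.13 and 0.66 ± 0.70 (SE), the latter on 80 reads. Il36b, a ligand of Il1rl2, had -0.19 ± 1.22 (SE) on 65 reads.

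Many ligands lay at or near the limit of detection. Of 34 ligand symbols 18 were under the count floor, and 10 of them (Il3, Il5, Il9, Il12b, Il13, Il17a, Il19, Il1f10, Il36a and Il36g) had no read in any library, which with 3 counts as the floor allows levels of up to 0.0341 to 0.0394 CPM per library. Of 36 receptor symbols only Il23r was under it. Levels were low among the members too, with 26 of 55 under a mean of 0.5 FPKM and 22 at 1 FPKM or more. The standard error of the log2 fold change was over 1 in 9 members, Il24 among them, for which only very large differences could be seen. Among the 47 members not called, 31 had a log2 fold change above 0 and 16 below.

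The wider interleukin pathway, in a list of 32 further genes of which 31 were tested, held 2 genes called higher and 0 called lower. Over all rows tested, 2.81% were called higher and 1.37% lower. The median log2 fold change of the list was 0.16. Tslp, a cytokine related to IL-7, had 481, 337 and 169 reads in CCI and 69, 66 and 23 in sham. The groups were separate, with a log2 fold change of 2.70 ± 0.53 (SE, edgeR adjusted p = 0.177). Csf2rb, the β chain common to the receptors of IL-3, IL-5 and GM-CSF, had 662, 346 and 336 reads in CCI and 216, 193 and 193 in sham. Its groups were also separate, and the log2 fold change was 1.22 ± 0.28 (SE, edgeR adjusted p = 0.227). Stat5a, Stat5b, Jak2, Irak4 and Traf6, which signal downstream of interleukin receptors, had unadjusted p-values under 0.05 with log2 fold changes of 0.43, 0.42, 0.40, 0.30 and 0.19, under the limit of size. In a list of 14 target and partner genes of macrophages and T cells, of which 10 were tested with a median log2 fold change of 0.51, Arg1 was called higher, while Ifng had no read in any library. Arg1, an arginase induced by IL-4 and IL-13 in macrophages, had 380, 271 and 157 reads in CCI and 88, 47 and 91 in sham (log2 fold change 1.90 ± 0.38, SE, edgeR adjusted p = 0.186). Mrc1, Alox15, Ccl24, Ccl17 and Ccl22 of the same list were not called, with log2 fold changes of 0.36, 0.28, -0.10, 4.17 and 0.52. Ccl17 and Ccl22 rested on 44 and 34 reads in all. The part of IL-4 and IL-13 in the Arg1 level was not tested.

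Markers of immune cell types that carry interleukin receptors differed in how many were called. Of 10 macrophage markers, 5 (Cd68, Csf1r, Ctss, Cx3cr1 and Tyrobp) were called higher. Aif1, Mrc1, Itgam, Adgre1 and Cd163 were not called, with log2 fold changes of 0.50, 0.36, 0.33, 0.02 and -0.003. Over all rows tested, 2.81% were called higher and 1.37% lower. The summed level of the macrophage list, of which Csf1r was the largest part, was 119 to 167 CPM in CCI against 87.4 to 110 CPM in sham. It was highest in CCI 1, as was that of the nerve injury list. Of 9 T cell markers 5 were tested and 1, Cd4, which rat macrophages also carry, was called higher. The sum of the list was 15.1 to 20.1 CPM in CCI and 11.4 to 12.01 CPM in sham, and without Cd4 it was 1.47 to 1.93 CPM against 1.002 to 1.45 CPM. Of 5 NK cell markers 3 were tested and Gzmb, with 15, 0 and 38 reads in CCI and 0 in each sham library, was called higher. Its log2 fold change was 7.22 ± 2.50 (SE, edgeR adjusted p = 0.458). Gzmb met the count floor through the CCI libraries alone, so only a higher call was possible. The sum of the NK cell list was 0.762 to 2.03 CPM in CCI and 0.700 to 1.01 CPM in sham. Of 5 B cell, 7 mast cell and 6 neutrophil markers 0 were called, with sums of 0.868 to 1.598, 80.3 to 85.7 and 8.09 to 11.3 CPM in CCI and of 1.147 to 1.62, 50.3 to 83.4 and 6.06 to 18.1 CPM in sham. Kit alone made up most of the mast cell sum, with 77.0 to 85.0 CPM in CCI and 48.5 to 81.6 CPM in sham. The other mast cell markers lay at 1.57 CPM or less in every library. None of the markers found for these 6 immune cell types was at 0 in all libraries. The part of these cells in the rise of the receptor chains was not tested.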

How the data were processed

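The authors depleted ribosomal RNA, sequenced paired ends and, per the labels, used HISAT2 2.0 and StringTie 1.3.0 on the rat genome they call V101. Whether strand was used is not given in the sources used here. The deposited counts are whole reads per gene row, without normalization. The deposited FPKM values are those counts divided by library total and row length, and rows with 0 counts are listed at 0.0001. Of 43350 rows, 6849 had no symbol and held 5.37% to 5.72% of a library's counts. No column was left unused.

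Rows with a count sum of at least 30 (30764 rows) were tested with edgeR 4.0.16 (quasi-likelihood, TMM, trended prior) in R 4.3.3. Members were the symbols of the rule. Members with their values in every library were those called, the most abundant of each role, partners of called members with a count sum of at least 300, and members whose groups were separate and differed by 0.58 or more on the log2 scale. Il1r2, Il17ra, Il22ra2 and Il27ra were added after their values were seen. Where several rows carried a symbol (7 members), a protein-coding row came first, then the largest count sum. The members and all lists were chosen with earlier results of these data known. Alternatives were DESeq2 1.42.0 (test and size factors), limma 3.58.1 on log2(FPKM + 0.1) and log2(FPKM + 1), other filters, scaling and priors, rows of a symbol summed, a replicate block and leaving out each library. The fits were tested on simulated data. A gene of the pathway lists is not reported here. With 3 rats against 3, an exact permutation test cannot reach p < 0.05, so single genes rest on the fit across all rows.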

Additional observations from a re-analysis of the deposited data

Results flagged for a closer look

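In some rows that the comparison did not use, the mean count of the CCI libraries lay above the highest sham library, although the single libraries overlapped in each. Il12rb2, a chain of the IL-12 receptor, had a second row on chromosome 4 (98099748 to 98100900, minus strand, in the V101 genome), with a mean of 949 reads over the 3 CCI libraries. It held 1498, 1293 and 56 reads in CCI and 15, 48 and 158 in sham, so that CCI 3 lay below Sham 3, and its log2 fold change was 3.71 ± 1.29 (SE, edgeR adjusted p = 0.405). The row of Il12rb2 used above had a log2 fold change of 0.25.

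Il15ra had a second row with a mean of 25.7 reads over the CCI libraries, from 16, 7 and 54 reads in CCI and 4, 8 and 20 in sham (log2 fold change 1.34 ± 0.98, SE, edgeR adjusted p = 0.729). Il23r, the receptor chain specific to IL-23 and 1 read short of the count floor, had a mean of 9.67 reads over the CCI libraries, from 25, 0 and 4 reads in CCI and 0 in each sham library, and was not tested. The other further rows of members had log2 fold changes from -0.38 (Il1r1) to 0.15 (Il1rapl1) and were not called.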

How the results depend on the processing

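Il24, Il1r1, Il13ra1 and Il4r kept their calls under all 16 alternatives. Il18rap, Il1rl1, Il2rb and Il18r1 were removed by the filter on a mean FPKM of 0.5, which left 15 alternatives. Of these, Il18rap, Il1rl1 and Il2rb lost their calls with limma on log2(FPKM + 1), where their log2 fold changes fell under the limit of size, and Il18r1 under 7. Members called higher numbered 4 with limma on log2(FPKM + 1) and 4 with a mean FPKM of at least 0.5, which left 29 members, and 7 to 9 with 1 library left out. Members called lower numbered 1 with a prior without trend and 0 to 1 with 1 library left out. DESeq2 put 7 members past the adjusted limit. The median log2 fold change was 0.15 and 0.093 with limma on log2(FPKM + 0.1) and log2(FPKM + 1), 0.21 with the FPKM filter, 0.24 without scaling factors, 0.23 with a prior without trend and 0.19 to 0.26 with 1 library left out. Pathway genes called higher numbered 3 in the fit reported, 6 with a prior without trend and 3 to 4 with 1 library left out, and the 1 called lower became 0 with limma on log2(FPKM + 1). Where no alternative's construction shows the cause, the cause was not tested.

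No pairing by replicate number was visible. The deviations of same-numbered libraries correlated at -0.0037, -0.0143 and -0.0407, and those of libraries with different numbers at -0.0147 to 0.0285. Such values do not exclude a pairing in the design. With a replicate block 8 members were called higher and 0 lower, the median was 0.24, Il33 gained a call (0.68) and Il18r1 lost its call.

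Some members that were not called changed sign when 1 library was left out. Their log2 fold changes then ranged from -0.093 to 0.51 (Il10ra), -0.11 to 0.68 (Il15), -0.087 to 0.077 (Il15ra), -0.53 to 0.14 (Il1b), -0.027 to 0.27 (Il1rap), -0.17 to 0.053 (Il1rapl1), -0.26 to 0.28 (Il31ra), -0.043 to 0.17 (Il4i1) and -0.41 to 0.26 (Il7). With rows summed Il15ra had 0.15. Depth limits the members of few reads most, since 9 had a standard error over 1.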
